A study of Mus musculus with 40 samples.

Results

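Hippocampal gene expression was compared between male mice in which H2A.Z was deleted from neurons and replaced by an H2A.Z.1 with 3 tail lysines changed to alanine (H2A.Z.1 KA, acetyl-defective) and male control mice (Myc), which asks what remains different from controls when only the mutant form is put back. The members were found by matching the sample number of each count column to the title of a mouse. They were 8 of the 40 mice of the series, 4 H2A.Z.1 KA (mice 5, 25, 26 and 43) and 4 Myc (mice 1, 22, 23 and 41), each with 1 RNA-seq library of whole hippocampal tissue. Values per mouse are given in that order of mice throughout.

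KA mice received a stereotaxic hippocampal injection of adeno-associated virus (AAV) that carried Cre recombinase under the neuronal synapsin promoter and of AAV that carried H2A.Z.1 with a 3x-Myc tag under the CMV promoter, in which lysines 4, 7 and 11 were changed to alanine. H2A.Z KO mice (4 males) received Cre with the Myc construct, and H2A.Z.1 WT mice (5 males) received Cre with unmutated H2A.Z.1. Myc mice received the Myc construct without Cre, so that the parts of Cre itself, deletion and replacement in a difference between KA and Myc cannot be told apart. The design text describes the mice as floxed for H2A.Z.1 and H2A.Z.2, whereas Myc mice carry the genotype label WT. Age and strain were not given in the sources used here. Deletion was limited to cells in which the synapsin promoter is active, so that glia and blood-borne cells in the tissue kept their own H2A.Z, and in bulk tissue fewer cells of a type and less RNA per cell cannot be told apart.

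H2A.Z is a variant of histone H2A that replaces the canonical protein at promoters and enhancers and is encoded in the mouse by H2az1 and H2az2. Acetyl groups on lysines of its N-terminal tail mark H2A.Z at active promoters, and alanine, which has no amino group in its side chain, cannot carry them. Interferons are signalling proteins released on detection of viral or misplaced nucleic acid. They switch on antiviral genes and genes of antigen presentation through a complex of transcription factors that includes STAT2 and IRF9 and binds the interferon-stimulated response element. Microglia are the resident macrophages of the brain, and reactive astrocytes are astrocytes that raise Gfap and complement genes after injury or inflammation.

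The stretch of H2az1 that the KA mutation concerns is shown first, since it defines the group. It lies in exon 2, at chr3:137570894-137570932 on the plus strand (GRCm39), begins at the codon after the start codon, and is the reference sequence, not that of the virus. Capitals mark the codons of lysines 4, 7 and 11, counted from the residue after the start methionine. The codon of lysine 13, also in this stretch, is not among those changed.

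H2az1: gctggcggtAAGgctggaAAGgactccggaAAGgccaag

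Total counts were 35475876 to 39567535 in KA mice and 33661020 to 41090936 in Myc mice. No 2 libraries of a group were alike within sampling noise. The chi-square of their counts, divided by its degrees of freedom, was 17.0 to 43.9 for pairs of KA mice and 9.52 to 26.5 for pairs of Myc mice. The largest values among KA mice were those of mouse 5 with mouse 25 (38.9) and with mouse 43 (43.9). Mouse 5 had the highest level of most immune and reactive glial genes among the KA mice, and results that rest on it are given with and without it. Across 28449 genes tested, 1464 were higher in KA than in Myc mice (5.15%) and 780 were lower (2.74%) at an adjusted p under 0.05 in edgeR's quasi-likelihood test. Of these, 948 (3.33%) and 106 (0.373%) also had a log2 fold change beyond 1 and are called differentially expressed genes (DEGs). Without mouse 5 the counts were 720 higher and 351 lower, with 514 and 64 DEGs. The number of lower genes was 1201 with the range of the sample number as a covariate and 1746 when the compared groups alone were fitted. Over all genes tested the log2 fold change had a median of 0.02. Each library is 1 mouse, so that p-values measure the spread between mice. Protein-coding genes made up 81.4% of the genes that were higher, 87.7% of those that were lower and 59.7% of all genes tested. Genes not matched to a GRCm39 gene model were counted as not protein-coding, which accounts for part of this contrast. Matched were 1365 of the 1464 higher genes, 744 of the 780 lower genes and 23885 of the 28449 tested.

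H2az1 transcripts, which can come from the endogenous gene and from the viral reading frame, were at 43.8, 40.1, 40.9 and 43.2 counts scaled to a common library size (CPM) in KA mice, against 32.4, 37.2, 34.9 and 27.0 CPM in Myc mice. The groups did not overlap, but the log2 fold change of 0.36 ± 0.16 (SE, n = 4 each) did not pass the threshold (adjusted p = 0.181). Each SE in this report comes from the fit of all 40 mice, in which the 10 groups share an estimate of spread, and not from the 8 mice alone. H2az2, the second H2A.Z gene, had 28.4, 24.7, 25.2 and 24.9 CPM in KA mice, against 22.3, 26.5, 23.5 and 20.6 CPM in Myc mice, and the groups overlapped (log2 fold change 0.15 ± 0.11, adjusted p = 0.429). H2az1 averaged 31.5 CPM in KO mice, so that in this tissue the counts of both genes do not check which mice received Cre. A list of 24 genes held those of H2A.Z, those of the complexes that deposit, remove or acetylate it, and H3f3b. Of these, 1 was higher and none was lower in KA than in Myc mice (median -0.04), beside 5.15% of all genes higher. The higher gene was H3f3b, which encodes the replication-independent histone H3.3 and not a part of H2A.Z or these complexes. It had 261, 241, 242 and 237 CPM in KA mice, against 166, 203, 195 and 186 CPM in Myc mice (log2 fold change 0.39 ± 0.10, adjusted p = 0.00891). H3f3b missed the threshold without Myc mouse 1 (adjusted p = 0.0564).

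**Figure D1:**
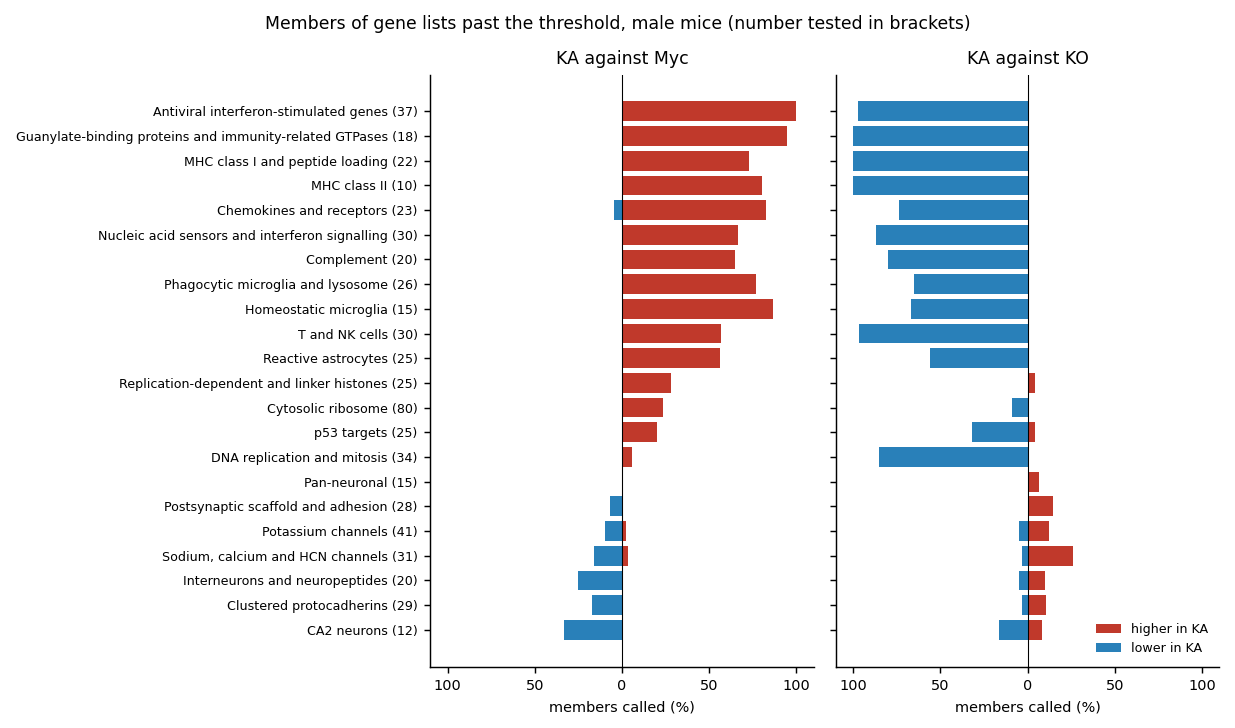
Share of the members of 22 gene lists past an adjusted p of 0.05 in male KA mice against Myc mice (left) and against KO mice (right), with bars to the right for members higher in KA and to the left for members lower in KA (percent of the number tested, in brackets). All 37 antiviral genes were higher than in Myc and 36 were lower than in KO, while 4 of 12 CA2 genes were lower than in Myc and 2 were lower and 1 higher than in KO.

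Antiviral interferon-stimulated genes were the list with the highest share of members called. All 37 were higher in KA than in Myc mice, beside 5.15% of all genes, with a median log2 fold change of 2.70 (lowest 0.70, highest 4.34) beside 0.02 over all genes. Every KA mouse was above every Myc mouse in all 37, a pattern found in 9.04% of all genes tested. Without mouse 5, 36 members were still called and the median was 2.39. The median of the members, as log2(CPM + 0.1) relative to the Myc mean, was 3.42, 2.06, 2.78 and 2.19 in the KA mice and lay between -0.56 and 0.50 in the Myc mice.

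Lgals3bp, a secreted glycoprotein induced by interferon, had 212, 81.3, 126 and 90.6 CPM in KA mice, against 16.2, 21.4, 10.3 and 19.4 CPM in Myc mice. The lowest KA mouse was above the highest Myc mouse by a wide margin, and the change of 7.58-fold (log2 fold change 2.92 ± 0.31) had the smallest adjusted p of the comparison (1.51e-06). Oas1b, a member of the oligoadenylate synthetase family of antiviral RNA sensors, had 5.93, 3.65, 4.20 and 3.86 CPM in KA mice, against 0.327, 0.889, 0.528 and 0.482 CPM in Myc mice (log2 fold change 3.00 ± 0.35, adjusted p = 1.81e-06). Oasl2, of the same family, had 139, 47.5, 83.4 and 57.2 CPM in KA mice, against 7.51, 13.1, 4.69 and 7.25 CPM in Myc mice (log2 fold change 3.33 ± 0.40). Neither gene overlapped between the groups. Reads of near-identical Oas copies may have been shared between them in counting. Xaf1, an interferon-induced gene of cell death, and Rtp4, a chaperone induced by interferon, rose by a log2 fold change of 2.15 ± 0.25 (adjusted p = 2.72e-06) and 2.67 ± 0.31 (adjusted p = 3.33e-06).

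The genes that sense nucleic acid and carry the interferon signal rose less uniformly, with 20 of 30 higher, beside 5.15% of all genes, and none lower. Their median log2 fold change was 1.19 (15 of 30 and 0.88 without mouse 5). Irf7, the transcription factor that amplifies the production of interferon, had 60.8, 23.5, 39.6 and 31.6 CPM in KA mice, against 3.52, 6.57, 2.11 and 4.26 CPM in Myc mice. Its log2 fold change was 3.25 ± 0.41 (adjusted p = 9.63e-06) and no KA mouse overlapped with a Myc mouse. Irf9, a DNA-binding partner of STAT2, rose by 1.62 ± 0.21 on the log2 scale (adjusted p = 1.07e-05). Ifih1, the cytosolic sensor of double-stranded RNA known as MDA5, rose by 1.80 ± 0.26 (adjusted p = 3.52e-05).

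The promoters of the antiviral and antigen presentation genes are shown because so many of these genes rose together. In the RefSeq promoter table (GRCm38.p6, 250 bases before to 50 after each start), the core GAAANNGAAA of the interferon-stimulated response element, searched on both strands with overlapping matches allowed, was present in 777 of 19901 tested genes with a promoter (3.90%). It was present in 116 of 1086 genes that were higher in KA than in Myc mice (10.7%) and in 18 of 624 that were lower (2.88%). Among the lists it was found in 14 of 27 antiviral genes, 10 of 11 guanylate-binding and immunity-related GTPases and 5 of 19 genes of MHC class I and peptide loading. The core TTCNNNGAA of the gamma-activated site was present in 9.04% of all tested genes with a promoter, in 10.6% of those that were higher and in 8.49% of those that were lower, with 7 of 27 antiviral genes, 6 of 11 of these GTPases and 2 of 19 class I genes holding it. A match is a description of the letters and says nothing about binding in these mice. The windows below are the upstream part around the matches in the members of 3 lists with the smallest p that held one, with the matches in capitals. These 6 genes were therefore chosen after their values were seen. The windows were located in GRCm39 by an identical match of the whole RefSeq window, and all are shown on the strand of the gene.

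Ifit3b: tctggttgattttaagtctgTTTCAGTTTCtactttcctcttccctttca

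Bst2: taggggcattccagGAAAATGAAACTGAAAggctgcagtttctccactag

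Gbp3: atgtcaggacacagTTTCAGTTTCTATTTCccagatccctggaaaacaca

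Irgm1: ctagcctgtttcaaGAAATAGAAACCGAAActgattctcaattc

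B2m: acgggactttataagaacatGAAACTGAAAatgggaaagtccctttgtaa

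H2-T23: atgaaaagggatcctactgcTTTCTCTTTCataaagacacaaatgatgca

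Ifit3b (chr19:34585183-34585232, plus strand), an antiviral tetratricopeptide repeat protein, averaged 66.9 CPM in KA mice and 10.1 CPM in Myc mice (log2 fold change 2.73 ± 0.34). Bst2 (chr8:71990211-71990260, minus strand), which tethers budding virus to the cell surface, averaged 41.0 CPM in KA mice and 5.77 CPM in Myc mice (2.83 ± 0.38). The windows of Bst2, Gbp3 (chr3:142265746-142265795, plus strand) and Irgm1 (chr11:48762248-48762291, minus strand) each held 2 overlapping matches. Those of B2m (chr2:121978009-121978058, plus strand) and H2-T23 (chr17:36343688-36343737, minus strand) held 1. Ifit3b had 2 matches upstream of its start, of which the window shows 1. H2-T23, a non-classical MHC class I gene, averaged 48.9 CPM in KA mice and 6.66 CPM in Myc mice (2.88 ± 0.45).

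Genes of MHC class I and the loading of peptides onto it were higher in KA mice for 16 of 22 members, beside 5.15% of all genes. None was lower, and the median log2 fold change was 1.81 (14 members and 1.44 without mouse 5). The 6 that did not pass were Tapbpl, Psmb10, Psme1, Psme2, Calr and Pdia3, of which the last 2 are general chaperones of the endoplasmic reticulum. B2m, the light chain shared by all class I molecules, had 1063, 383, 480 and 388 CPM in KA mice, against 109, 137, 100.3 and 151 CPM in Myc mice. The groups did not overlap, and the log2 fold change was 2.22 ± 0.30 (adjusted p = 2.16e-05) with mouse 5 and 1.75 (adjusted p = 0.000163) without it. H2-D1, a classical class I heavy chain, had 588, 218, 291 and 214 CPM in KA mice, against 39.8, 55.0, 42.1 and 58.1 CPM in Myc mice (log2 fold change 2.75 ± 0.36, adjusted p = 1.23e-05). H2-K1, the other classical heavy chain, rose by 2.79 ± 0.37 and H2-Q4 by 3.06 ± 0.41. The class I heavy chains are near-identical, so that the share of reads given to each is uncertain.

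MHC class II presents antigen to CD4 T cells and is carried by microglia, macrophages and B cells. Of its genes 8 of 10 were higher, beside 5.15% of all genes, with a median log2 fold change of 2.72 (7 members and 1.97 without mouse 5). H2-DMb2 and Ciita, the class II transactivator, did not pass. Cd74, the invariant chain of class II, had 487, 43.6, 46.2 and 52.3 CPM in KA mice, against 1.66, 4.89, 2.70 and 8.77 CPM in Myc mice. H2-Aa, a class II alpha chain, had 200, 13.6, 20.6 and 19.1 CPM in KA mice, against 0.880, 1.40, 0.792 and 3.58 CPM in Myc mice. The other 3 KA mice were also above every Myc mouse for both genes, although mouse 5 was several times higher than they were. The log2 fold change of Cd74 was 5.12 ± 0.87 (adjusted p = 0.000235) with mouse 5 and 3.39 (adjusted p = 0.00395) without it, and that of H2-Aa was 5.23 ± 0.92 (adjusted p = 0.00033) with it and 3.39 (adjusted p = 0.00686) without it. H2-Ab1, the class II beta chain, rose by 4.97 ± 0.89.

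Guanylate-binding proteins and immunity-related GTPases, which attack the membranes around intracellular pathogens, were higher for 17 of 18 members, beside 5.15% of all genes. Their median log2 fold change was 3.04. Gbp2b did not pass. Without mouse 5, 13 members passed and the median was 2.07. Gbp3 had 99.0, 29.4, 49.97 and 34.6 CPM in KA mice, against 7.11, 7.84, 5.39 and 9.86 CPM in Myc mice (log2 fold change 2.82 ± 0.41, adjusted p = 4.25e-05). Irgm1, a regulator of this GTPase family, had 227, 44.8, 77.4 and 43.6 CPM in KA mice, against 12.1, 17.7, 10.7 and 14.1 CPM in Myc mice (log2 fold change 2.85 ± 0.51, adjusted p = 0.000405). Gbp6 rose by 3.67 ± 0.64. The groups did not overlap for any of these 3 genes, and several Gbp genes are near-identical copies whose reads may have been shared.

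**Figure D2:**
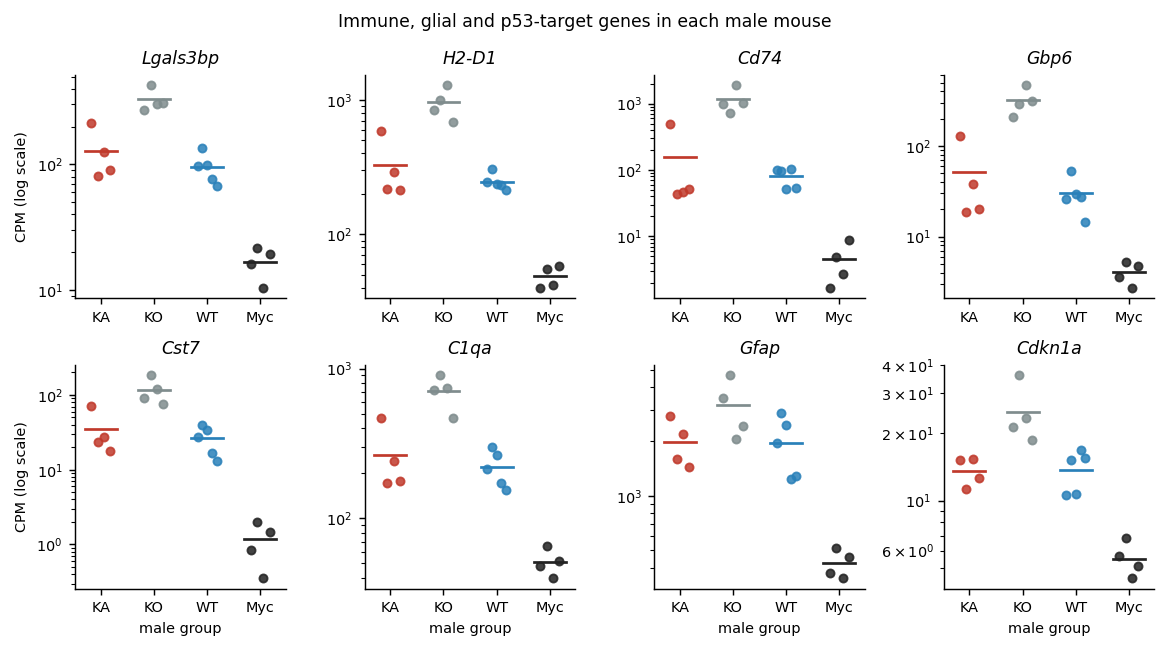
CPM on a log axis of 8 genes in each male mouse of the KA, KO, WT and Myc groups, where points are mice and lines are group means. Every KA mouse lay above every Myc mouse, for Cd74 with mouse 5 at 487 CPM and the other KA mice at 43.6 to 52.3 CPM, and all 8 means were higher in KO than in KA mice.

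Microglial genes were higher in KA than in Myc mice, both those of the resting cell and those of the phagocytic one. Homeostatic markers were higher for 13 of 15 members, beside 5.15% of all genes, with a median log2 fold change of 0.85 (0.73 without mouse 5, with 12 members). Their summed level was 737 to 1063 CPM in KA mice and 374 to 491 CPM in Myc mice. The part of this higher marker level in the rise of the antiviral, MHC and complement genes was not tested. P2ry12, a receptor of resting microglia, and Fcrls did not pass. Sall1, a transcription factor of microglial identity in the brain, had 34.1, 27.9, 29.6 and 28.5 CPM in KA mice, against 19.4, 18.4, 19.7 and 20.2 CPM in Myc mice (log2 fold change 0.63 ± 0.09, adjusted p = 3.52e-05). Cx3cr1, the fractalkine receptor of microglia, had 164, 115, 133 and 108 CPM in KA mice, against 52.8, 67.1, 60.1 and 60.7 CPM in Myc mice (1.11 ± 0.19, adjusted p = 0.000247). The groups were apart for both genes. Selplg and Olfml3, also enriched in microglia, rose by 0.72 ± 0.11 and 1.28 ± 0.20.

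Genes of phagocytic microglia and the lysosome were higher for 20 of 26 members, beside 5.15% of all genes. Their median log2 fold change was 1.62 (14 members and 1.29 without mouse 5). Their summed level was 4623 to 8196 CPM in KA mice and 2433 to 3184 CPM in Myc mice. Cst7, an inhibitor of cysteine proteases that marks disease-associated microglia, had 71.5, 23.4, 27.6 and 17.9 CPM in KA mice, against 0.855, 2.00, 0.352 and 1.47 CPM in Myc mice. The change was 30.2-fold (log2 fold change 4.92 ± 0.62, adjusted p = 9.63e-06), and the log2 fold change was 4.31 without mouse 5. Clec7a, a receptor for fungal glucans found on disease-associated microglia, rose by 3.90 ± 0.70 and Itgax, the integrin CD11c, by 3.90 ± 0.61. Ctss, a lysosomal protease that cleaves the invariant chain, had 677, 291, 382 and 265 CPM in KA mice, against 85.5, 109, 75.0 and 101 CPM in Myc mice (4.36-fold, adjusted p = 4.25e-05). Lag3 rose by 2.62 ± 0.32 and Cd52, a small surface glycoprotein of leukocytes, by 3.56 ± 0.51. Apoe, Lpl, Spp1, Fabp5, Igf1 and Ch25h did not pass.

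Complement, the cascade that tags material for engulfment, was higher for 13 of 20 members, beside 5.15% of all genes. The median log2 fold change was 1.75 (10 members and 1.01 without mouse 5). C1qa, a chain of the initiating C1q complex, had 465, 172, 242 and 177 CPM in KA mice, against 48.0, 65.0, 39.7 and 51.9 CPM in Myc mice (2.37 ± 0.35, adjusted p = 5.28e-05). C1qb rose by 2.15 ± 0.31. C4b, which acts just after C1q, had 468, 234, 277 and 172 CPM in KA mice, against 50.7, 46.4, 36.5 and 49.98 CPM in Myc mice (2.65 ± 0.41, adjusted p = 7.1e-05). None of these genes overlapped between the groups.

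Chemokines, which draw leukocytes into tissue, and their receptors were higher for 19 of 23 members and lower for 1, beside 5.15% and 2.74% of all genes. The median log2 fold change was 2.70 (14 higher, none lower and 2.10 without mouse 5). Ccl3 had 2.33, 1.95, 2.28 and 1.46 CPM in KA mice, against 0.151, 0.317, 0.147 and 0.279 CPM in Myc mice (3.16 ± 0.45, adjusted p = 2.16e-05). Cxcl13, which attracts B cells, had 217, 32.5, 70.5 and 30.7 CPM in KA mice, against 2.41, 2.25, 0.704 and 1.22 CPM in Myc mice (5.73 ± 1.09, adjusted p = 0.000793). Both genes were apart in every mouse. Ccl4 and Ccl12 rose by 3.00 ± 0.52 and 3.32 ± 0.53. The member that fell was Ackr3, a scavenging receptor of Cxcl12, by 0.49 on the log2 scale (adjusted p = 0.0283), named after its value was seen.

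Markers of T and NK cells were at low levels but higher in KA mice for 17 of 30 members, with a median log2 fold change of 2.80 (2.69 with the 1 member that had no count in Myc mice, Ifng, set at its bound of 3 counts over the group). Their summed level was 20.4 to 61.9 CPM in KA mice and 8.65 to 11.0 CPM in Myc mice. Without mouse 5, 6 members passed and the median was 1.88. Cd3g, a chain of the T cell receptor complex, had 4.59, 0.938, 2.15 and 0.971 CPM in KA mice, against 0.0754, 0, 0 and 0.0761 CPM in Myc mice (adjusted p = 0.000275). Cd2, an adhesion molecule of T cells, had 2.88, 0.786, 1.05 and 0.458 CPM in KA mice, against 0.0503, 0.0952, 0.0880 and 0.0254 CPM in Myc mice (4.29 ± 0.76, adjusted p = 0.00028). Every KA mouse was above every Myc mouse for both. Pdcd1, the inhibitory receptor PD-1, and Cd4 rose by 3.67 ± 0.65 and 3.69 ± 0.69. Beside 5.15% of all genes, 2 of 14 markers of blood-derived macrophages and neutrophils were higher. They were Ms4a7, with 5.11, 0.583, 1.26 and 1.10 CPM in KA mice, against 0.151, 0.571, 0.235 and 0.355 CPM in Myc mice, and Ly6c2, a marker of inflammatory monocytes, with 12.3, 0.329, 0.420 and 2.29 CPM in KA mice, against 0.251, 0.381, 0.323 and 0.203 CPM in Myc mice. The lowest KA mouse was just above the highest Myc mouse in Ms4a7, the groups overlapped in Ly6c2, and without mouse 5 no member of this list passed.

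Immunoglobulin transcripts, made by plasma cells, were high in some KA mice and near 0 in others. Of 16 markers of B and plasma cells 7 were higher in KA mice (2 without mouse 5), beside 5.15% of all genes. The summed level of the 16 ran from 24.4 to 1343 CPM in KA mice and from 13.9 to 40.0 CPM in Myc mice. Ighg2b, a constant region of IgG, had 145, 0.684, 2.75 and 41.8 CPM in KA mice, against 0, 0.0635, 0.469 and 0 CPM in Myc mice (adjusted p = 0.0125, and 0.0857 without mouse 5). Igkc, the constant region of the kappa light chain, had 561, 2.28, 32.4 and 177 CPM in KA mice, against 0.151, 0.159, 10.3 and 0.127 CPM in Myc mice (adjusted p = 0.00826, and 0.0567 without mouse 5). KA mice 5 and 43 carried most of both transcripts, and Igkc in KA mouse 25 was below Myc mouse 23. Ighv1-12, 1 of the many variable segments, had 84.2, 0.279, 0.157 and 2.10 CPM in KA mice, against 0, 0.0635, 0 and 0 CPM in Myc mice, so that nearly all of it came from mouse 5 (adjusted p = 0.0325, and 0.483 without mouse 5). The general B cell markers Cd79a, Cd79b, Ms4a1 and Pax5 did not pass.

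Genes listed for reactive astrocytes rose, with few of the constitutive astrocyte markers changed. Which cells of the tissue carried these transcripts was not tested. Reactive genes were higher for 14 of 25 members with a median log2 fold change of 1.85 (8 members and 1.22 without mouse 5). Of 15 constitutive markers 2 were higher, with a median of 0.17, beside 5.15% of all genes. Gfap, the intermediate filament of astrocytes, had 2755, 1596, 2199 and 1438 CPM in KA mice, against 375, 516, 349 and 461 CPM in Myc mice (2.23 ± 0.37, adjusted p = 0.000153). The lowest KA mouse was above the highest Myc mouse. C3, the central complement protein, had 94.0, 6.21, 23.8 and 9.76 CPM in KA mice, against 1.03, 1.43, 0.733 and 1.24 CPM in Myc mice (4.91 ± 0.95, adjusted p = 0.00096, and 3.58 without mouse 5). The 2 constitutive markers were Aqp4, the water channel of astrocyte endfeet (1.14 ± 0.33, adjusted p = 0.0298), and Sox9, a transcription factor of astrocytes (0.79 ± 0.22, adjusted p = 0.0207). Neither passed without mouse 5 (adjusted p = 0.18 and 0.136).

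In the other glial and vascular lists few members passed, beside 5.15% of all genes that were higher. Of 15 oligodendrocyte and myelin genes 1 was higher, Trf, the iron carrier transferrin, with 528, 470, 512 and 412 CPM in KA mice, against 259, 275, 254 and 289 CPM in Myc mice (0.84 ± 0.23, adjusted p = 0.0208). Trf missed the threshold without KA mouse 5 (adjusted p = 0.0786), and also without KA mouse 26, Myc mouse 1 or Myc mouse 23. Of 12 ependymal markers 1 was higher, Rarres2, the chemoattractant chemerin (adjusted p = 0.0361, and 0.205 without mouse 5). All 12 ependymal estimates were above 0, with a median log2 fold change of 0.78 (0.67 without mouse 5). None of 12 markers of endothelium, 15 of mural cells and fibroblasts, 12 of oligodendrocyte precursors, 16 of choroid plexus and 5 of blood passed. Summed choroid plexus markers, which vary with dissection, were 266.5 to 743 CPM in KA mice and 228 to 1022 CPM in Myc mice and overlapped.

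The pan-neuronal list had no member past the threshold, while some markers of particular neurons were lower in KA mice. None of 15 pan-neuronal genes passed (median log2 fold change -0.18), although their summed level, which did not overlap, was 7342 to 8922 CPM in KA mice and 9582 to 10400 CPM in Myc mice. The part of this lower level in the falls of single neuronal genes was not tested. None of 17 dentate granule markers passed (median -0.08). In CA1 and CA3 1 of 14 and 1 of 12 markers were lower, Etv1 and Elavl2, beside 2.74% of all genes, with median log2 fold changes of -0.34 and -0.37. Neither gene passed without mouse 5 (adjusted p = 0.157 and 0.105), when the medians were -0.31 and -0.42, and Etv1 was also lost in 6 other alternatives. In CA2, the small field between them known for its role in social memory, 4 of 12 markers were lower, with a median of -0.75 (3 members and -0.63 without mouse 5).

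Amigo2, an adhesion molecule used to mark CA2, had 6.35, 8.46, 7.32 and 11.0 CPM in KA mice, against 23.7, 33.4, 19.0 and 27.5 CPM in Myc mice. It fell by 1.64 on the log2 scale (SE 0.21, adjusted p = 7.44e-06), to 32.0% of the Myc level, and without mouse 5 by 1.54. Avpr1b, the vasopressin receptor of CA2, was low throughout, with 0.0824, 0.127, 0.0525 and 0.539 CPM in KA mice, against 1.26, 1.90, 0.821 and 1.52 CPM in Myc mice (log2 fold change -2.76 ± 0.54, adjusted p = 0.000701). Rgs14, a brake on synaptic plasticity in CA2, had 49.1, 59.3, 67.3 and 66.7 CPM in KA mice, against 95.6, 132, 99.3 and 111 CPM in Myc mice (-0.85 ± 0.19, adjusted p = 0.00331). In all 3 genes every KA mouse was below every Myc mouse, a pattern found in 8.14% of all genes tested. Amigo2 was also among the genes named for the largest falls, for which this was a condition of the choice. Map3k15 fell by 1.20 (adjusted p = 0.0179, and 0.0606 without mouse 5). Pcp4, Cacng5, Ntf3, Vcan, Stard5, Fam163b, Sostdc1 and Necab2 did not pass.

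**Figure D3:**
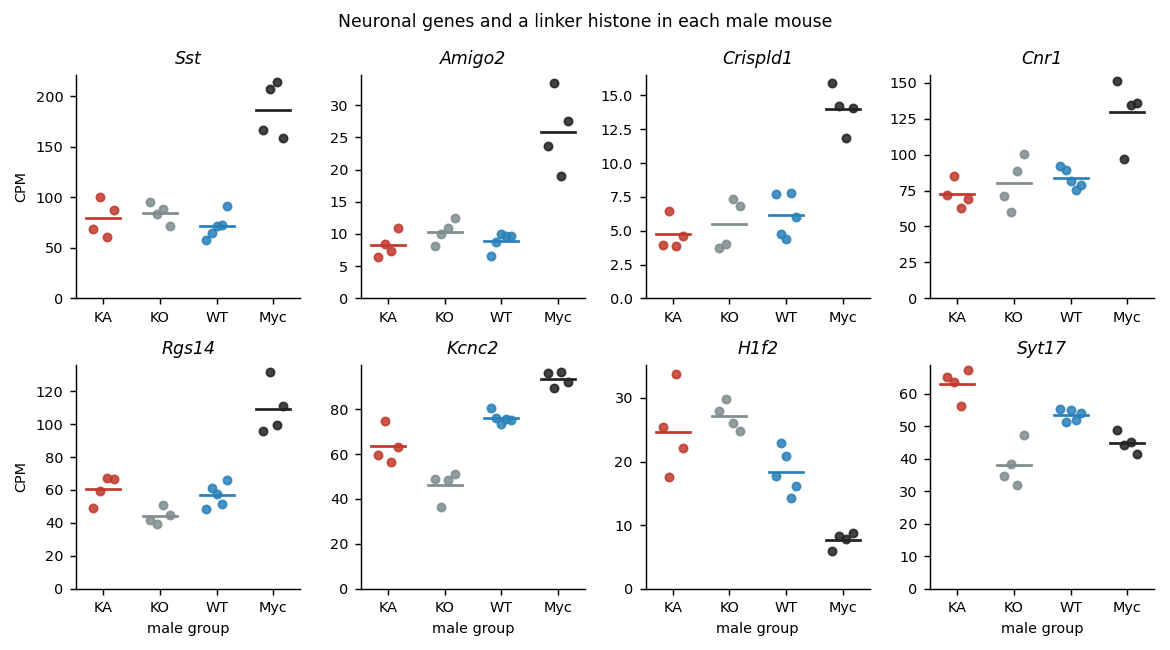
CPM on axes from 0 of 7 neuronal genes and the linker histone H1f2 in each male mouse of the KA, KO, WT and Myc groups, where points are mice and lines are group means. Sst averaged 79.2 CPM in KA mice, 84.8 CPM in KO mice, 71.7 CPM in WT mice and 187 CPM in Myc mice, and Syt17 was highest in KA mice.

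Interneuron genes were lower for 5 of 20 members, beside 2.74% of all genes, and higher for none. The median log2 fold change was -0.38 (2 members and -0.28 without mouse 5). Estimates above 0 were found for 5 of the 20, the highest at 1.36, and none of these passed. Sst, the neuropeptide somatostatin, had 68.4, 100.5, 60.5 and 87.5 CPM in KA mice, against 167, 207, 214 and 159 CPM in Myc mice. The groups were well apart, and Sst fell to 42.4% of the Myc level (-1.24 ± 0.23, adjusted p = 0.000609). Cnr1, the cannabinoid receptor carried by cholecystokinin interneurons, had 71.7, 85.4, 63.0 and 69.4 CPM in KA mice, against 151, 97.1, 134 and 136 CPM in Myc mice (-0.84 ± 0.20, adjusted p = 0.00556). Gad1, which makes GABA, and Reln, the secreted protein reelin, fell by 0.40 (adjusted p = 0.0253) and 0.41 (adjusted p = 0.025), and both missed the threshold without mouse 5 (adjusted p = 0.155 and 0.101). Tac1, the precursor of substance P, was the fifth and was named after its value was seen.

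The largest falls among genes of at least 1 CPM whose groups did not overlap were of moderate to low expression. Slitrk6, a synaptic adhesion protein, had 0.385, 0.786, 0.236 and 0.647 CPM in KA mice, against 1.78, 3.87, 2.32 and 1.90 CPM in Myc mice (-2.25 ± 0.44). Fyb2, an adaptor of immune receptors, fell to 22.7% of the Myc level, and Vit, an extracellular matrix protein, to 30.2%. Crispld1, a secreted cysteine-rich protein, had 3.93, 6.49, 3.88 and 4.64 CPM in KA mice, against 15.9, 14.2, 11.8 and 14.1 CPM in Myc mice (-1.56 ± 0.26, adjusted p = 0.00013). Among genes of at least 20 CPM, Begain, a postsynaptic scaffold partner, had 24.5, 41.9, 24.1 and 33.8 CPM in KA mice, against 57.9, 62.0, 67.2 and 60.0 CPM in Myc mice (-0.99 ± 0.22, adjusted p = 0.00272). Eif5a2, a translation factor, had 25.5, 28.9, 19.8 and 24.4 CPM in KA mice, against 56.4, 39.0, 46.3 and 49.6 CPM in Myc mice (-0.96 ± 0.13, adjusted p = 1.77e-05). That every KA mouse was below every Myc mouse was a condition for the choice of these 6 genes. Ankrd29, Krt222 and Fstl5 fell by 0.93, 0.88 and 0.87.

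Ion channels, receptors and synaptic genes moved little as lists, with single members lower. Over all genes tested, 2.74% were lower and 5.15% were higher. Of 41 potassium channel genes 4 were lower (Kcna2, Kcnc2, Kcnh7 and Kcnk2) and 1 higher, with a median log2 fold change of -0.23 (2 lower and 1 higher without mouse 5, when Kcnk2 had an adjusted p of 0.0667). Kcnc2, a fast channel of interneurons, had 59.6, 74.7, 56.5 and 63.1 CPM in KA mice, against 96.2, 89.6, 96.9 and 92.4 CPM in Myc mice (-0.56 ± 0.11, adjusted p = 0.000857). The member that rose was Kcnn4, a calcium-activated channel known from leukocytes and microglia (2.42 ± 0.58). Of 31 sodium, calcium and HCN channel genes 5 were lower (Scn1a, Nalcn, Cacna2d3, Cacnb4 and Hcn3) and 1 was higher, Cacna1s, the calcium channel of skeletal muscle (1.28 ± 0.31). Without mouse 5, 2 were lower and none was higher, and Cacna1s had an adjusted p of 0.0621 and Hcn3 of 0.0678. Nalcn, the sodium leak channel that sets resting potential, had 62.4, 74.0, 61.3 and 64.1 CPM in KA mice, against 104.6, 87.8, 102 and 103 CPM in Myc mice (-0.60 ± 0.12, adjusted p = 0.000921). Scn1a, the sodium channel of inhibitory neurons that is mutated in Dravet syndrome, fell by 0.64 (adjusted p = 0.00403). No KA mouse reached the Myc range in Kcnc2, Nalcn or Scn1a. Kcna2, Cacna2d3 and Cacnb4 were named after their values were seen.

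Among receptors, 2 of 31 glutamate receptor genes were lower, beside 2.74% of all genes. They were Grik1, a kainate receptor subunit, and its auxiliary subunit Neto2. Of 15 GABA receptor genes 2 were lower (1 without mouse 5), among them Gabra3, with 34.0, 47.1, 26.3 and 28.7 CPM in KA mice, against 75.7, 53.1, 72.4 and 59.6 CPM in Myc mice (-0.94 ± 0.24, adjusted p = 0.0105). Of 34 receptors for dopamine, serotonin, acetylcholine and neuropeptides 4 were lower, Htr1b (-0.90), Htr7 (-0.88), Chrna4 (-0.78) and Oprl1 (-0.60), of which Oprl1 alone passed without mouse 5. Of 34 presynaptic genes 2 were lower and none was without mouse 5. Among them Nrxn3, which binds postsynaptic neuroligins, fell by 0.44 (adjusted p = 0.179 without mouse 5). Of 28 postsynaptic genes 2 were lower, the scaffolds Homer1 and Homer2, and none passed without mouse 5. Clustered protocadherins, surface proteins that give neurons their identity, were lower for 5 of 29 members (Pcdha1, Pcdhb2, Pcdhb3, Pcdhb19 and Pcdhga1), with a median of -0.29 (2 members without mouse 5) and shared 3-prime exons that make counts of the alpha and gamma members uncertain.

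Syt17, an atypical synaptotagmin, was the 1 presynaptic gene that rose. It had 65.2, 63.6, 56.3 and 67.1 CPM in KA mice, against 48.9, 44.3, 45.0 and 41.5 CPM in Myc mice (0.49 ± 0.13, adjusted p = 0.0123). Every KA mouse was above every Myc mouse. Against KO mice, which averaged 38.0 CPM, Syt17 was also higher in KA mice (0.73, 95% interval 0.47 to 1.00, adjusted p = 0.000118).

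Histone genes rose in part. Of 25 replication-dependent and linker histone genes 7 were higher, beside 5.15% of all genes, and none lower. Their median log2 fold change was 0.60 (5 members and 0.68 without mouse 5). H1f2, a linker histone, had 25.4, 17.5, 33.8 and 22.1 CPM in KA mice, against 5.86, 8.31, 7.86 and 8.70 CPM in Myc mice (1.69 ± 0.20, adjusted p = 1.96e-06). H2bc4, a gene of histone H2B, had 55.3, 42.0, 69.5 and 57.7 CPM in KA mice, against 32.4, 35.0, 26.1 and 29.1 CPM in Myc mice (0.87 ± 0.12, adjusted p = 1.77e-05). The groups were apart in both, and mouse 5 was not the highest KA mouse. H4c8 and H4c9 rose by 1.47 ± 0.26 and 1.14 ± 0.22. Histone genes are near-identical copies, and reads can be shared between them. Among genes of DNA replication and mitosis, with which histone supply is coupled in dividing cells, 2 of 34 members were higher, a share near the 5.15% of all genes. They were Mcm3, a subunit of the replicative helicase (0.93 ± 0.22), and Cdk1, the kinase of mitosis (1.97 ± 0.53), and the list had a median of 0.14. Cdk1 missed the threshold without KA mouse 5 (adjusted p = 0.0537) and without Myc mouse 1 (adjusted p = 0.0768).

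Of 25 targets of p53, the transcription factor of the DNA damage response, 5 were higher, beside 5.15% of all genes, and none lower. The median log2 fold change was 0.21 (2 members passed without mouse 5), and 17 of the 25 estimates were above 0. The summed level of the list was lower in KA mice, at 901.5 to 942.7 CPM, than in Myc mice, at 987.3 to 1037 CPM. Cdkn1a, the cell cycle inhibitor p21, had 15.1, 11.2, 15.3 and 12.7 CPM in KA mice, against 5.66, 6.82, 4.52 and 5.12 CPM in Myc mice (1.30 ± 0.20, adjusted p = 4.18e-05). Gdf15, a secreted stress signal, had 0.522, 0.330, 0.472 and 0.378 CPM in KA mice, against 0.0503, 0.0317, 0.0293 and 0.0254 CPM in Myc mice (3.50 ± 0.62, adjusted p = 0.000205). Neither overlapped between the groups. Eda2r, a receptor of the TNF family, rose by 1.28 ± 0.34 (adjusted p = 0.0789 without mouse 5), and Trp53inp1 by 0.40 (adjusted p = 0.217 without mouse 5). Fas, a death receptor also found on immune cells, was the fifth.

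Cytosolic ribosomal protein genes were higher for 19 of 80 members, beside 5.15% of all genes, and lower for none. All 80 estimates were above 0, with a median log2 fold change of 0.40. Without mouse 5, 1 member passed, while the median was 0.35. Rpl5, a protein of the large subunit, had 51.3, 46.9, 40.5 and 45.6 CPM in KA mice, against 33.1, 36.8, 35.7 and 36.1 CPM in Myc mice (0.38 ± 0.09, adjusted p = 0.00786). Rplp0, a protein of the ribosomal stalk, had 189, 158, 163 and 175 CPM in KA mice, against 99.9, 147, 113 and 116 CPM in Myc mice (0.53 ± 0.14, adjusted p = 0.0145). The groups did not overlap in either gene, and neither passed without mouse 5 (adjusted p = 0.0614 and 0.0735). Of 40 respiratory chain genes 1 was lower, a share near the 2.74% of all genes. It was Ndufs1 of complex I (-0.27 ± 0.08, adjusted p = 0.134 without mouse 5). None of the 13 genes of the mitochondrial genome passed.

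The study singles out Gadd45b, Arc, Fos, Fkbp5 and Th for acetylated H2A.Z bound at the gene, compared between the sexes. It names Mfng, Kcnc1, Kiss1r and Dkk2 for RNA in KA mice against mice with the same lysines changed to glutamine. The values here are RNA in KA against Myc mice and do not test those results. Gadd45b, a stress-induced regulator of DNA demethylation, had 12.8, 10.4, 12.9 and 12.1 CPM in KA mice, against 7.99, 9.81, 6.57 and 7.58 CPM in Myc mice (0.60 ± 0.14, adjusted p = 0.00589). Mfng, a glycosyltransferase of Notch receptors, had 6.10, 4.21, 5.01 and 4.31 CPM in KA mice, against 1.94, 2.63, 2.76 and 3.14 CPM in Myc mice (0.91 ± 0.19, adjusted p = 0.00138). Both genes were apart between the groups. Mfng and the related Lfng were the 2 of 20 Notch genes that passed, and Wnt7b (0.57 ± 0.13) was the 1 of 33 Wnt genes. Over all genes tested, 5.15% were higher. Arc, an activity-dependent regulator of synapses, had 64.4, 103, 69.0 and 98.3 CPM in KA mice, against 141, 260, 95.5 and 98.7 CPM in Myc mice, with overlap and an adjusted p of 0.209. Fos, an immediate early transcription factor, had a log2 fold change of 0.30 (adjusted p = 0.648), Fkbp5, a glucocorticoid-induced chaperone, of -0.23 (adjusted p = 0.346), and Th, the enzyme of dopamine synthesis, of 0.65 (adjusted p = 0.422). Kcnc1, a fast potassium channel, had 86.0, 110, 103 and 114 CPM in KA mice, against 129, 118, 124 and 129 CPM in Myc mice, which did not overlap but did not pass (adjusted p = 0.141). Kiss1r, the kisspeptin receptor (-0.22), and Dkk2, a Wnt antagonist (0.65), did not pass either (adjusted p = 0.461 and 0.239).

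Against H2A.Z KO, which asks how far replacement moved expression away from deletion alone, 1667 genes were higher in KA mice (5.86%) and 2827 were lower (9.94%), of which 190 (0.668%) and 1456 (5.12%) were DEGs. This comparison shares the KA mice with that against Myc. Immune lists were lower in KA than in KO mice, with 36 of 37 antiviral genes (median log2 fold change -1.57), all 22 genes of MHC class I, all 10 of class II, all 18 guanylate-binding and immunity-related GTPases and 29 of 30 T and NK cell markers. Lgals3bp averaged 127 CPM in KA mice and 329 CPM in KO mice (-1.37, 95% interval -1.96 to -0.77). Cd74 averaged 157 CPM in KA mice and 1165 CPM in KO mice (-2.89, 95% interval -4.45 to -1.33). Replication and mitosis genes were lower for 29 of 34 members (median -1.29). Relative to the Myc mean, the list median was 0.43, 2.10, 1.64 and 0.77 in KO mice 3, 4, 21 and 42, and 0.14 to 0.29 in KA mice. Cdk1 averaged 0.952 CPM in KA mice and 5.25 CPM in KO mice. It had 2.14, 12.5, 5.54 and 0.821 CPM in these KO mice and 1.13, 0.583, 1.10 and 0.998 CPM in KA mice, so that the groups overlapped.

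Several genes that fell against Myc were near their level in KO mice. Sst averaged 79.2 CPM in KA mice and 84.8 CPM in KO mice, a difference of -0.10 on the log2 scale with a 95% interval of -0.57 to 0.37. Amigo2 averaged 8.28 CPM in KA mice and 10.4 CPM in KO mice (-0.32, interval -0.75 to 0.11), and Crispld1 averaged 4.73 CPM in KA mice and 5.46 CPM in KO mice (-0.20, interval -0.73 to 0.33). Among raised genes H1f2 averaged 24.7 CPM in KA mice and 27.1 CPM in KO mice (-0.14, interval -0.52 to 0.25). None of these 4 passed, and the intervals leave room for differences of up to the bounds given. Kcnc2 and Nalcn, by comparison, were higher in KA than in KO mice (0.46, adjusted p = 0.00362, and 0.39, adjusted p = 0.0224), while Neto2 was lower in KA than in KO mice (-0.53, adjusted p = 0.000423) as well as lower than in Myc mice.

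**Figure D4:**
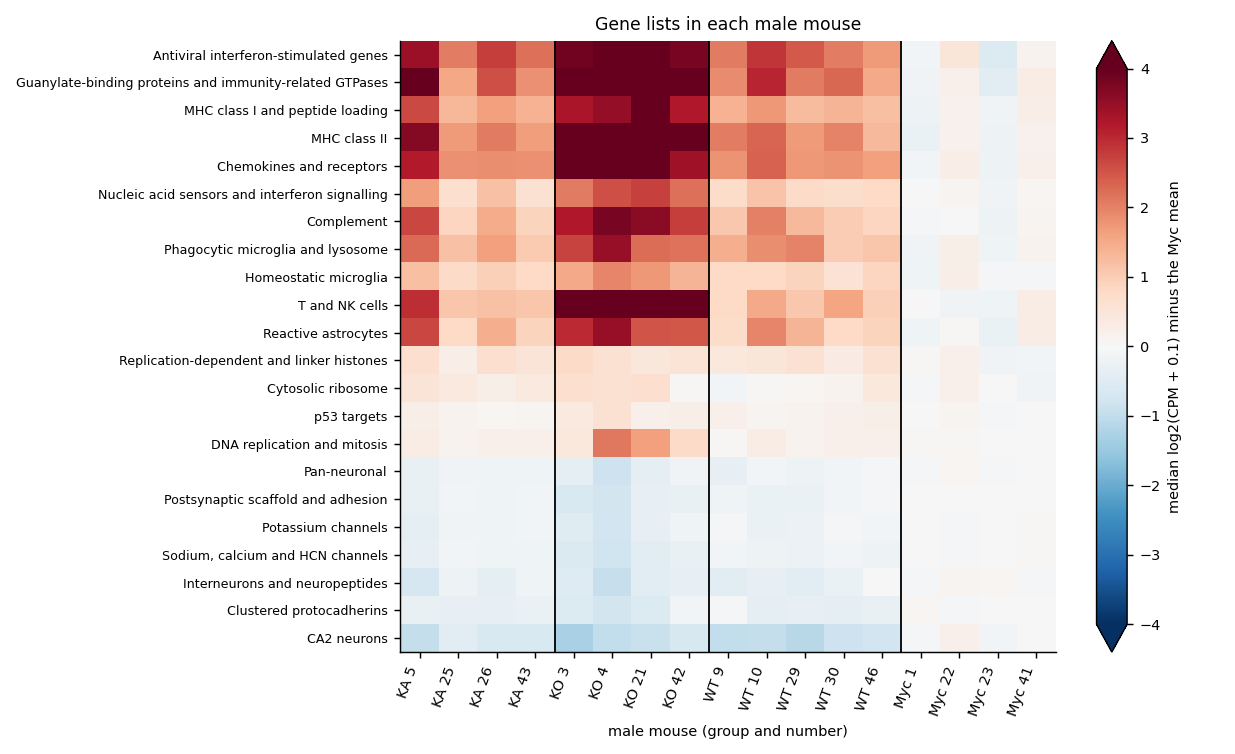
Median over the members of each gene list of log2(CPM + 0.1) minus the mean of the Myc mice, in each male mouse of the KA, KO, WT and Myc groups, with red above and blue below the Myc mean and colours saturated beyond 4 and -4. Antiviral genes stood at 2.06 to 3.42 in KA mice, 3.80 to 4.54 in KO mice and 1.69 to 2.85 in WT mice, and CA2 markers at -0.96 to -0.45 in KA mice.

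Against H2A.Z.1 WT, which asks what the lysine changes add beyond replacement itself, 0 of 28449 genes passed in edgeR (0.0% in each direction), with 1439 genes at an unadjusted p under 0.05. DESeq2 called 9 higher and 12 lower. The smallest adjusted p in edgeR was 0.556. The median log2 difference was 0.38 for antiviral genes, 0.71 for MHC class II and 0.18 for CA2 markers, with no member past the threshold. Relative to the Myc mean, the class II median was 3.68 in KA mouse 5 and 1.66 to 2.09 in the other KA mice, against 1.31 to 2.33 in WT mice. For antiviral genes it was 3.42 in KA mouse 5 and 2.06 to 2.78 in the other KA mice, against 1.69 to 2.85 in WT mice. Apart from mouse 5, the KA mice thus lay within the WT range in both lists. Gfap averaged 1997 CPM in KA mice and 1967 CPM in WT mice. Among the genes with the smallest p, Sh3bgrl3 averaged 104 CPM in KA mice and 78.5 CPM in WT mice (0.41, adjusted p = 0.793), Ubxn2a 72.9 CPM in KA mice and 91.3 CPM in WT mice (-0.33, adjusted p = 0.632) and Klf7, a transcription factor of neurons, 36.5 CPM in KA mice and 46.6 CPM in WT mice (-0.35, adjusted p = 0.632).

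The change from Myc to KA was also tested against the same change in females (4 KA and 3 Myc mice). For 0 of 28449 genes did it differ between the sexes in edgeR (0.0% in each direction), with 1264 genes at an unadjusted p under 0.05 and a smallest adjusted p of 0.984, and DESeq2 called 8 in each direction. B2m, for example, averaged 579 CPM in male KA mice and 124 CPM in male Myc mice, and 504 CPM in female KA mice and 147 CPM in female Myc mice. Nalcn averaged 65.5 CPM in male KA mice and 99.3 CPM in male Myc mice, and 65.0 CPM in female KA mice and 104 CPM in female Myc mice. A p that misses the threshold does not show that the sexes responded alike.

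The mice carry sample numbers in 3 ranges (1 to 20, 21 to 40 and 41 to 46), each with KA and Myc mice, which allowed the comparison within a range. The 1464 genes that were higher were higher in KA in 100% of cases in the first range, which holds mouse 5, in 99.9% in the second and in 98.4% in the third. Their median log2 difference was 1.68, 0.985 and 0.782 in the 3 ranges. All 780 genes that were lower were lower in each range, with medians of -0.596, -0.416 and -0.462. Genes were called on these same mice, so that these shares describe the spread and are no separate test.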

How the data were processed

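Hippocampal RNA-seq libraries of 40 mice in 10 groups were used. Reads were aligned to GRCm39 with Rsubread and assigned to genes with featureCounts by the authors, who deposited the raw counts (strand setting not given in the sources used here). A table scaled by DESeq2 1.38.3 size factors was not used. FastQC 0.11.9 is also named in the submitters' processing notes.

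A sum of 20 or more counts across the mice was required of a gene, which left 28449 of 40853. Scaling was by TMM, and the quasi-likelihood test (robust, a mean for each group) was run in edgeR 4.0.16 (R 4.3.3), with Benjamini-Hochberg adjustment over all genes tested. CPM were computed from TMM-scaled library sizes. The code was tested on simulated data.

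Named genes are those the study singles out, the 10 largest changes per direction among called genes with groups that do not overlap (from 1 CPM and again from 20 CPM), up to 4 members of each of 50 gene lists by smallest p (1129 members tested), and the 5 smallest p per direction against WT and between the sexes. For the genes named for the largest changes, groups that do not overlap were thus a condition and not a result. Members and lists were chosen with earlier results of these data known. Some genes are in more than 1 list, as C3 is in those of complement and of reactive astrocytes. Other genes, named because a count was small or because they did not pass, were chosen after their values were seen. A few genes are not reported here.

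As alternatives, DESeq2 1.42.0, its size factors within edgeR, library totals without TMM, filterByExpr (21918 genes), no filter beyond a count above 0 (35929 genes), a fit that is not robust, a covariate for the range of the sample number, a fit of the compared groups alone and the omission of each mouse were run. Values within each range and list counts without KA mouse 5 were added after seeing the data.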

Additional observations from a re-analysis of the deposited data

Results flagged for a closer look

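In groups of 4 mice, 236 sets of values were screened for a mouse far from the other 3. They were those of the 115 named genes and of a few library measures, in KA and in Myc mice. Such a mouse was found in 21 sets, while chance alone gives about 1 in 20 of all sets screened. The sets share the same mice and are not independent. KA mouse 5 was the high one in 13 of the 21 sets. It had 28.4 CPM of H2az2, 1063 CPM of B2m, 132 CPM of H2-Q4, 487 CPM of Cd74, 199.6 CPM of H2-Aa, 159 CPM of H2-Ab1, 36.9 CPM of Itgax, 84.2 CPM of Ighv1-12, 2.23 CPM of Cacna1s, 6.57 CPM of Mcm3, 74.0 CPM of Cd52, 5.11 CPM of Ms4a7 and 12.3 CPM of Ly6c2. Among the other KA mice, mouse 43 stood apart for Avpr1b (0.539 CPM) and mouse 26 for Frmd7 (0.839 CPM, the lowest).

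Among Myc mice, mouse 41 was high for H2-Ab1 (3.35 CPM), mouse 23 for Ighg2b (0.469 CPM) and Igkc (10.3 CPM), mouse 22 for Ighv1-12 (0.0635 CPM) and mouse 1 for Homer1 (159 CPM), and mouse 22 was low for Grik1 (13.0 CPM).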

How the results depend on the processing

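No paired analysis was possible because each mouse carries its own number and no number is shared between groups. Of 115 named genes 105 passed against Myc. Their direction did not change in any of up to 16 alternatives per gene, and 76 passed in each. The genes were chosen in large part for a small p or for groups that do not overlap in these same mice. Omitting a mouse cannot reverse a gene whose groups do not overlap, so that the unchanged direction is no separate test. In 109 of 1680 values a call was lost, for 29 genes without 1 of the mice and for 7 in another alternative. Over the mice left out in turn, genes higher in KA than in Myc mice numbered 720 to 1619 and genes lower 351 to 903, with 514 to 1094 and 64 to 157 DEGs. The lowest counts came without KA mouse 5 and the highest without KA mouse 25. Without Myc mouse 1 there were 967 higher and 453 lower, and without KA mouse 26 there were 469 lower. Genes lower in KA than in Myc mice numbered 1201 with the range of the sample number as a covariate and 1746 with only the groups of the comparison. Against KO, genes higher in KA mice numbered 988 (without KA mouse 43) to 1846 (without KA mouse 5), with 1106 without KO mouse 4 and 1069 with only the groups of the comparison, and genes lower 2122 to 3006. Against WT and between the sexes edgeR called 0 genes in each direction with any of the mice left out, while DESeq2 called 9 higher and 12 lower against WT, and 8 and 8 between the sexes. The causes were not tested. Of 720 counts of list members under the alternatives, 542 were within 1.5 times the count reported, and 27 of the other 178 came without KA mouse 5. With 4 mice in each group and counts of a few reads, changes of lowly expressed genes such as Avpr1b, Gdf15 and Cd3g are known less precisely.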
